A study of Mus musculus with 2 samples.

Results

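The 10 genes described here encode cytokines and chemokines that T cells can secrete or display: Il4, Il21, Csf1, Ifng, Il2, Tnf, Lta, Ltb, Xcl1 and Ccl5. They were taken by symbol from a read count table of 35275 genes, and all 10 symbols were found. The table holds 2 RNA libraries of TEa cells, 1 per group. TEa cells are CD4 T cells of strain C57BL/6 with a transgenic receptor for a peptide of I-E alpha, a class II chain of BALB/c mice. In the library titled Effector the cells had been transferred into WT C57BL/6 recipients given Balb/c skin, and in the library titled Exhaust into CB6F1 mice, whose own cells carry the antigen by inheritance. Both were sorted from splenocytes. Host strain and skin transplant differ together with the amount of antigen, so these cannot be told apart. The sources used here do not give the ages of the mice, the time after transfer or the number of mice behind each library. The libraries are called effector and exhausted below, after their titles.

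Cytokines are the signals by which helper T cells direct other cells. IL-4 and IL-21 act on B cells, and IL-4 marks type 2 helper cells. IFN-gamma marks type 1 helper cells and activates macrophages, while IL-2 is the growth factor of T cells themselves. CSF-1 is the survival and growth factor of macrophages. TNF and the lymphotoxins are related trimeric ligands, of which lymphotoxin beta holds lymphotoxin alpha at the cell surface and maintains lymphoid tissue. XCL1 and CCL5 are chemokines, which attract dendritic cells and effector lymphocytes. Most of these genes are silent in resting T cells and are switched on by receptor signals through NFAT, AP-1 and NF-kB.

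The DNA just upstream of 4 of the genes is shown because they form 2 pairs that went opposite ways between the libraries, with Il4 and Il21 more abundant in the exhausted library and Ifng and Il2 more abundant in the effector library. Each sequence is the 250 bases before the RefSeq transcription start on build GRCm38.p6, read 5′ to 3′ on the strand of the gene. Capitals mark the core letters of NFAT sites, GGAAA, or TTTCC where the core lies on the other strand. The regions are chr11:53618666-53618915 (Il4, minus strand), chr3:37232637-37232886 (Il21, minus strand), chr10:118440796-118441045 (Ifng, plus strand) and chr3:37125955-37126204 (Il2, minus strand).
Il4: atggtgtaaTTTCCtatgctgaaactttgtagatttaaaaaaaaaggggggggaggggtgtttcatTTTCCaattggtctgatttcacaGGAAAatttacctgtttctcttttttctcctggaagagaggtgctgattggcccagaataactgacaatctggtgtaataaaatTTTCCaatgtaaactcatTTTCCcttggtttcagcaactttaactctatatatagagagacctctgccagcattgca
Il21: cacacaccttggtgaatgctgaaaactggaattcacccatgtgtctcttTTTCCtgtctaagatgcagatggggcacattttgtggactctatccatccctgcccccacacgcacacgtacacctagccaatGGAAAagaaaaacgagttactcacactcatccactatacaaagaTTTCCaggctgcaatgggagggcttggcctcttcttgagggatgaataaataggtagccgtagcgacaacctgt
Ifng: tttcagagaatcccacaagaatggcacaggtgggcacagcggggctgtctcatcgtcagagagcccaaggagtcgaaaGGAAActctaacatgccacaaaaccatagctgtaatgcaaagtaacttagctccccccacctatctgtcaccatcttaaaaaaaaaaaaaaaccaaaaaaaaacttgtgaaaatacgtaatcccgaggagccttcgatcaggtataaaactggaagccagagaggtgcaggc
Il2: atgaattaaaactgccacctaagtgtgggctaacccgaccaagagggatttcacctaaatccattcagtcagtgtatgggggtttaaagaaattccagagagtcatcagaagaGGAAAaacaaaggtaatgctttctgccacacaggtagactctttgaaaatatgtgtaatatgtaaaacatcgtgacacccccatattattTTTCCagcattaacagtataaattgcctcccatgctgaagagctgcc

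The NFAT core letters occurred 5 times upstream of Il4, 3 times upstream of Il21, 2 times upstream of Il2 and 1 time upstream of Ifng. Of the 10 genes, 9 were matched in the RefSeq promoter table, all but Ccl5, and Il4 has 2 starts there, of which the one nearer the annotated gene end was used. All 9 held at least 1 core, against 55.6% of the 32851 promoters in that table. At least 3 cores were present in 4 of the 9, namely Il4, Il21, Csf1 and Tnf, against 6.39% of all promoters. Of these 4, Tnf did not differ by 2-fold between the libraries. Matches are letters and not binding sites, and matches of different motifs may overlap.

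Other motif letters were searched on both strands in the same window. The AP-1 letters TGANTCA were in none of the 9, against 6.75% of all promoters. The NF-kB letters GGGNNNNNCC were in 6 of 9 (45.8% of all promoters), with 4 matches each upstream of Csf1 and Ltb. The STAT letters TTCNNNGAA were in Ifng, Lta and Ltb (7.02% of all), and the T-box letters GGTGTGA were in Xcl1 alone (3.33% of all). A TATA box, TATAAA, was in 4 of 9 against 12.4% of all promoters. It began 30 bases before the start of Ifng, 31 before Il2, 29 before Tnf and 167 before Lta.

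Between the 2 libraries the genes divided into a set with far more reads in the exhausted library, a set with fewer, and 2 that differed by less than 2-fold. Total counts were 7844445 reads for the effector and 8508129 for the exhausted library, and levels below are in CPM, a gene's reads relative to the library size after scaling by the trimmed mean of M-values (TMM). Ratios are exhausted over effector, with an exact 95% interval that covers counting error only and takes amplified copies of a molecule as separate reads. Genes were taken as measured from 50 reads, summed over the libraries. A measured gene was called higher or lower from a 2-fold ratio upwards, provided that the interval excluded equality. With 1 library per group there is no replicate check and no p-value. In bulk RNA, fewer expressing cells and less RNA per cell cannot be told apart.

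Of the 10 genes 8 were measured. Of these, 3 were higher in the exhausted library (Il4, Il21 and Csf1), against 6.65% of all 9999 measured genes. Another 3 were lower (Ifng, Il2 and Lta), against 7.07%, and Tnf and Ltb were neither. In either direction the rule called 13.7% of measured genes. Among measured genes with under 500 reads it called 22.4%, 10.9% as higher and 11.5% as lower. Il4, Il21, Csf1 and Ifng reached the read minimum only through the library in which they were more abundant, so these counts describe the genes and support nothing further. The median log2 ratio of the 8 was -0.28, beside -0.002 over all measured genes, and it lies between the values of Ltb and Tnf.

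**Figure D1:**
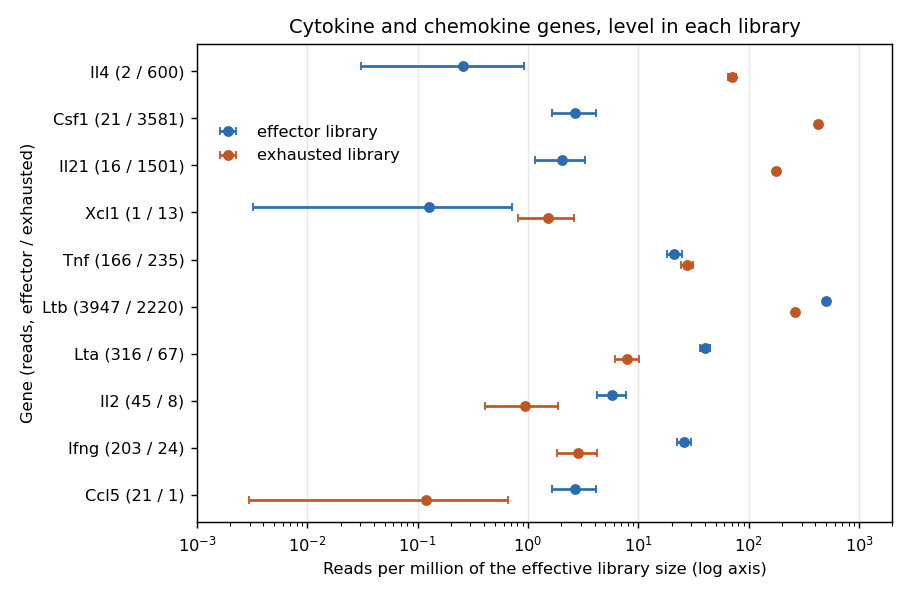
Level of each of the 10 genes in the effector (blue) and the exhausted (orange) library, in CPM on a log axis, with exact 95% counting intervals and the raw reads beside each name. Il4, Csf1 and Il21 lie far apart with orange to the right, while Tnf and Ltb lie close together.

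Il4, Il21 and Csf1 were nearly absent from the effector library and abundant in the exhausted library. Il4 (ENSMUSG00000000869, mm10 chromosome 11, 53602982 to 53618669, minus strand) had 2 effector reads and 600 exhausted reads. That is 0.255 against 70.6 CPM, a 277-fold difference with a wide interval (76.4 to 2295) because the effector library held only 2 reads. Among all 9999 measured genes its ratio ranked 4 from the top.

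Csf1 (ENSMUSG00000014599, chromosome 3, 107741048 to 107760469, minus strand) had 21 and 3581 reads, or 2.67 and 421 CPM. In the exhausted library it had more reads than any other of the 10 genes. Its 158-fold ratio (103 to 255) ranked 7 from the top. Il21 (ENSMUSG00000027718, chromosome 3, 37222759 to 37232618, minus strand) had 16 and 1501 reads, or 2.04 and 177 CPM, and its 86.7-fold ratio (53.2 to 152) ranked 13. The intervals of these 3 ratios overlap for Il4 with both others and for Il21 with Csf1, so their order is not resolved by counting alone.

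Ifng, Il2 and Lta lay on the opposite side. Ifng (ENSMUSG00000055170, chromosome 10, 118441047 to 118445892, plus strand) had 203 effector reads and 24 exhausted reads, which is 25.8 against 2.82 CPM and 9.15-fold lower (5.98 to 14.6). Il2 (ENSMUSG00000027720, chromosome 3, 37120523 to 37125959, minus strand) had 45 and 8 reads, or 5.73 and 0.942 CPM, and was 6.08-fold lower (2.84 to 14.9). It passed the read minimum with 53 reads in all. Lta, which encodes lymphotoxin alpha (ENSMUSG00000024402, chromosome 17, 35203165 to 35205351, minus strand), had 316 and 67 reads, or 40.2 and 7.89 CPM, and was 5.10-fold lower (3.91 to 6.74). All 3 were still detected in the exhausted library, and their intervals overlap one another. Counted from the lowest ratio, Ifng ranked 93, Il2 151 and Lta 175 of 9999.

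Tnf and Ltb did not reach 2-fold. Tnf (ENSMUSG00000024401, chromosome 17, 35199381 to 35202007, minus strand) had 166 effector and 235 exhausted reads, 21.1 against 27.7 CPM, a ratio of 1.31 (1.07 to 1.61). Ltb, which encodes lymphotoxin beta (ENSMUSG00000024399, chromosome 17, 35194439 to 35196320, plus strand), had 3947 and 2220 reads, 502 against 261 CPM, and was 1.92-fold lower (1.83 to 2.03). It fell just short of the 2-fold rule although its many reads give it the narrowest interval of the 10.

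The chemokine genes had too few reads to be measured. Xcl1 (ENSMUSG00000026573, chromosome 1, 164931644 to 164935527, minus strand) had 1 effector read and 13 exhausted reads, a ratio of 12.02 with an interval from 1.81 to 511. Ccl5 (ENSMUSG00000035042, chromosome 11, 83525778 to 83530518, minus strand) had 21 and 1 reads, 22.7-fold lower with an interval from 3.65 to 939. Both intervals exclude equality, but their width leaves the sizes of these differences unresolved.

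**Figure D2:**
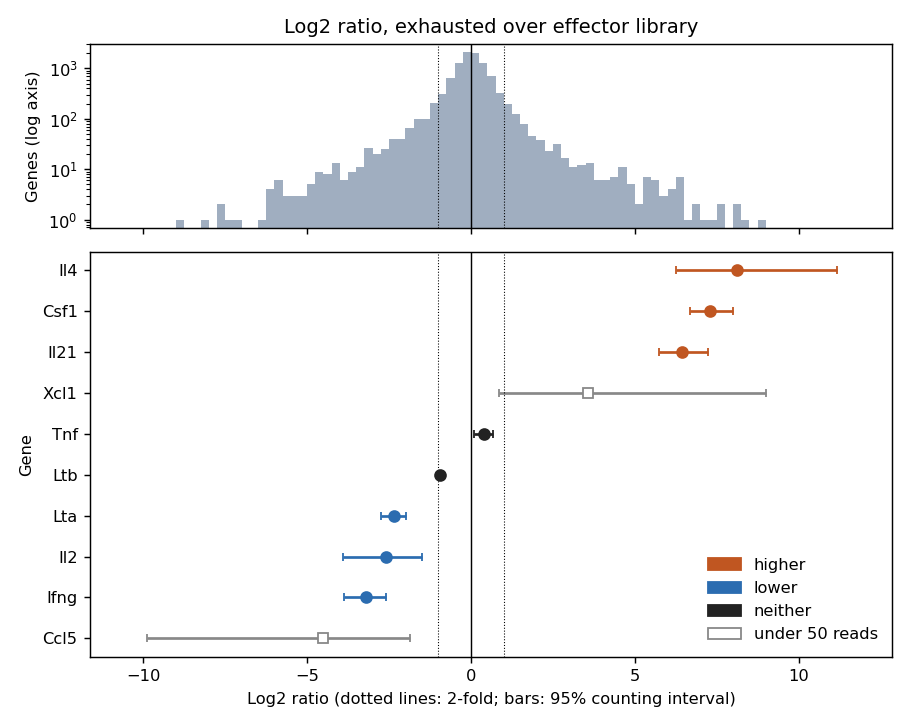
Upper panel, number of measured genes (log axis) by log2 ratio of exhausted over effector library. Lower panel, the log2 ratio of each of the 10 genes with its 95% counting interval, with open squares for genes under 50 reads; Il4, Csf1 and Il21 lie at the right edge of the distribution of all genes, at 8.12, 7.30 and 6.44.

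Comparing reads of 2 cytokine genes inside one library removes the scaling between libraries. Among reads of Il4 and Ifng together, Il4 took 0.976% in the effector library (2 of 205 reads, exact interval 0.118 to 3.48%). In the exhausted library it took 96.2% (600 of 624, 94.3 to 97.5%). The make-up of this pair was thus reversed between the libraries, with intervals far apart. The pairs here and below were chosen after the values were seen. Their shares restate the reads given above, so they are not separate evidence.

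Il21 and Il2, which are neighbours on chromosome 3, showed the same kind of exchange. Il21 took 26.2% of the reads of this pair in the effector library (16 of 61, 15.8 to 39.1%) but 99.5% in the exhausted one (1501 of 1509, 98.96 to 99.8%). For the chemokines, Xcl1 took 4.55% of the reads of Xcl1 and Ccl5 in the effector library (1 of 22, 0.115 to 22.8%) but 92.9% in the exhausted one (13 of 14, 66.1 to 99.8%). These shares rest on few reads, but their intervals do not overlap.

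Within the TNF and lymphotoxin cluster the 3 genes did not keep their proportions. Lta took 65.6% of the reads of Lta and Tnf in the effector library (316 of 482, 61.1 to 69.8%) but 22.2% in the exhausted one (67 of 302, 17.6 to 27.3%). Lta made up 7.41% of the reads of Lta and Ltb among effector reads (6.64 to 8.24%) and 2.93% among exhausted reads (2.28 to 3.71%). Tnf made up 4.04% of the reads of Tnf and Ltb in the effector library (3.46 to 4.68%), against 9.57% in the exhausted one (8.44 to 10.8%). So the lymphotoxin alpha transcript was less abundant relative to both neighbours in the exhausted library.

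Divided by gene length as well, the levels of different genes can be set in order within a library. In the effector library Ltb stood highest at 355 RPKM, the CPM value per kilobase of gene length. Lta followed at 29.1 (counting interval 26.0 to 32.5), then Ifng at 21.4 (18.6 to 24.6) and Tnf at 12.9 (11.01 to 15.01), with no overlap between these. Il2 at 5.01 (3.65 to 6.70) and Ccl5 at 4.002 (2.48 to 6.12) overlapped. Il21 at 0.663, Csf1 at 0.640, Il4 at 0.421 and Xcl1 at 0.243 came last, and their intervals overlapped.

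In the exhausted library Ltb was again highest at 184 RPKM. Il4 came next at 117 (107.6 to 126), ahead of Csf1 at 101 (97.7 to 104), and Il21 followed at 57.5 (54.6 to 60.5). Tnf at 16.9 and Lta at 5.70 (4.42 to 7.24) came after them. Xcl1 at 2.93 (1.56 to 5.003), Ifng at 2.34 (1.499 to 3.48), Il2 at 0.823 (0.355 to 1.62) and Ccl5 at 0.176 (0.00446 to 0.982) closed the order. Xcl1 overlapped Lta, Ifng and Il2, and Il2 also overlapped Ifng and Ccl5.

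The make-up of the 10 genes changed accordingly. Summed per length, Ltb, Lta and Tnf supplied 92.5% of the effector library's cytokine level and 42.4% of the exhausted library's. Il4, Il21 and Csf1 together supplied 0.402% and 56.3%. Ifng, Il2, Lta and Ccl5 supplied 13.9% and 1.85%. By reads alone the 10 genes had 4738 reads in the effector library, 0.823% of them (0.586 to 1.12%) in Il4, Il21 and Csf1. In the exhausted library they had 8250 reads, 68.9% of them (67.9 to 69.9%) in the same 3 genes. The order by reads differs from that by length, since Csf1 is a long transcript and Il4 a short one.

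**Figure D3:**
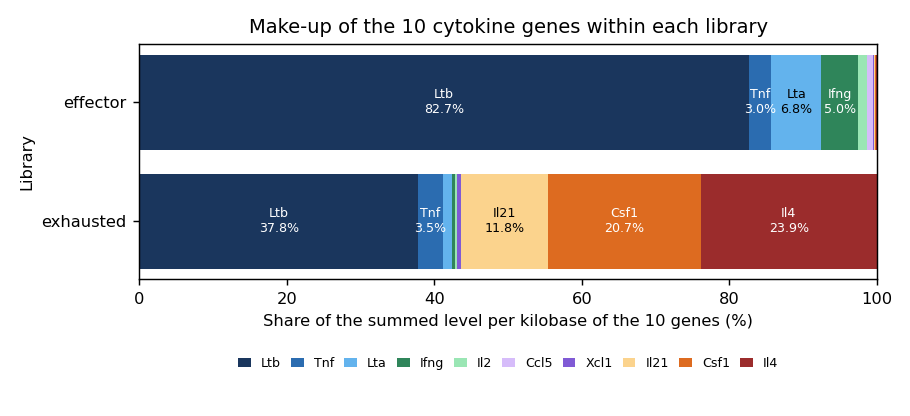
Share of each of the 10 genes in their summed level per kilobase, in percent, in the effector and the exhausted library. Ltb fills 82.7% of the effector bar and 37.8% of the exhausted bar, where Il4 (23.9%), Csf1 (20.7%) and Il21 (11.8%) take most of the rest.

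The genes around the cytokine loci were read next. Of 16 distinct neighbouring genes (those overlapping one of the 10, or the nearest measured gene on each side), 15 were measured. Of these, 4 were higher, 1 was lower and 10 were neither, so 5 of 15 passed the rule. It called 13.7% of all measured genes and 22.4% of those with under 500 reads. Among the higher is Gm12534, which overlaps Il21, so its call may not be separate from that of Il21. Next to Il4, the DNA repair gene Rad50, which holds a control region of the type 2 cytokine cluster, had 435 and 490 reads (ratio 1.04, 0.913 to 1.19). On the other side the kinesin gene Kif3a had 63 and 116 reads (1.70, 1.24 to 2.35). The cytokine genes Il13 and Il5, which lie in the same cluster as Il4, had 0 reads in both libraries, which allows up to 3 reads in each.

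Il21 and Il2 lie 96.8 kb apart on the same strand, with no other measured gene between them. Beyond Il21, Bbs12 had 57 and 44 reads and was neither. Beyond Il2, 4932438A13Rik had 3083 and 5672 reads (1.70, 1.63 to 1.78), also neither. In the GENCODE M21 annotation the antisense gene Gm12534 overlaps 469 exon bases of Il21 on the other strand. The spans of Il21 and Ifng in that annotation differ from those in the deposited table. Gm12534 had 0 and 127 reads, 39.1-fold higher against a floor of 3 reads (lower counting limit 31.4). The sources used here do not say whether the counting used strand, so reads of Il21 and Gm12534 may be mixed.

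In the TNF cluster Tnf lies 1.16 kb from Lta and 3.06 kb from Ltb. The flanking gene Nfkbil1 beside Lta had 45 and 54 reads (1.11, 0.733 to 1.69). Prrc2a beside Ltb had 274 and 678 reads and was 2.29-fold higher (1.99 to 2.64), opposite in direction to Ltb itself. Beside Csf1, Ahcyl1 was neither (1181 and 1522 reads), and the glutathione transferase gene Gstm1, 252 kb away, had 11 and 1029 reads (86.5-fold, 48.1 to 174). The Gstm genes resemble each other, and how reads shared among them were counted is not given in the sources used here. Both neighbours of Ifng, Mdm1 and Dyrk2, were neither. Taf15 near Ccl5 was higher (20 and 58 reads), and Atp1b1, 473 kb from Xcl1, was lower (483 and 81 reads). In the GENCODE M21 annotation Ifng also shares 336 exon bases with Gm49751 on its own strand. Xcl1 shares 98 with Gm20743 on the other strand. Neither Gm49751 nor Gm20743 was found in the deposited table by its gene identifier.

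**Figure D4:**
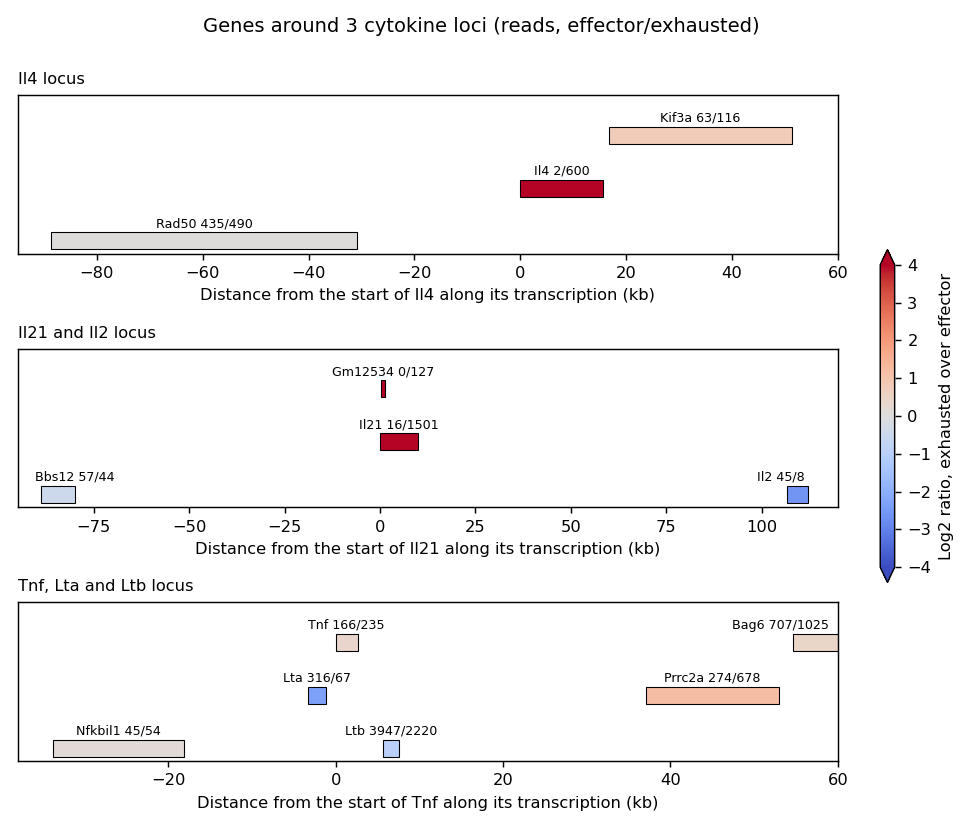
Measured genes around Il4, around Il21 and Il2, and around Tnf, Lta and Ltb, by distance in kb from the start of Il4, Il21 or Tnf along its transcription, with reads in the effector and exhausted library and colour for the log2 ratio. Dark red Il4 (2/600) sits between the pale Rad50 and Kif3a, and dark red Il21 (16/1501) lies on the same strand as blue Il2 (45/8).

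AU-rich elements of the 3′ UTR, which hold the ATTTA pentamer, are known to make cytokine mRNAs short-lived. A match of these letters alone need not be a working element. In the longest annotated 3′ UTR of each gene, ATTTA occurred 8 times in Tnf, 7 times in Il2, 6 times in Ifng and 9 times in Il21. Per kilobase that is 10.5 for Tnf, 12.1 for Il2, 9.51 for Ifng and 3.49 for Il21, against a median of 1.35 over 9479 measured genes with a 3′ UTR. The short 3′ UTR of Il4, of 104 bases, held 2 (19.2 per kilobase), and the 3′ UTR of Lta held 3 (5.24 per kilobase). Csf1 had 4 in 2111 bases (1.90 per kilobase) and Xcl1 had 1 in 141 bases. Ltb and Ccl5 had none in 174 and 199 bases. Of the 10 genes 8 lay above the median of measured genes, among them genes higher, lower and neither. The stricter nonamer, TTATTTA followed by 2 bases that are A or T, was in 5 of the 10, against 18.2% of measured genes. It occurred 5 times in Tnf, 2 times each in Il2 and Lta, and 1 time each in Ifng and Il21. Il4, Csf1, Ltb, Xcl1 and Ccl5 held none.

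Few other interleukin and chemokine genes were measured. In both libraries 17536 of all 35275 genes had 0 reads. Of 16 further interleukin genes 9 were at 0 in both, including Il5, Il13, Il17a and Il22. The only one measured was Il16 (3093 and 3321 reads), which encodes a chemoattractant for CD4 cells and was neither. Il10 had 1 and 0 reads. Of 33 further chemokine genes 19 had 0 reads in both libraries and Ccl25 alone was measured (32 and 59 reads, neither). Ccl3 (3 and 13 reads) and Ccl4 (1 and 19 reads), which like Xcl1 are made by activated T cells, stayed below the read minimum.

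Growth factor genes included 8 measured members. Of these 4 were higher (6.65% of all measured genes), 1 lower (7.07% of all) and 3 neither. Their median was 0.74 on the log2 scale. Higher were Spp1, which encodes osteopontin (15 and 85 reads, 5.24-fold, 3.004 to 9.77), Tgfb3 (67 and 339 reads, 4.68-fold), Lif (22 and 61 reads, 2.56-fold) and Tgfb1 (681 and 1599 reads, 2.17-fold). The lower gene was Flt3l, the ligand gene of a dendritic cell growth receptor (644 and 236 reads, 2.95-fold lower, 2.54 to 3.44). Csf2 and Csf3, the other colony stimulating factor genes listed, had 0 reads in both libraries and 0 and 1 read.

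TNF superfamily ligand genes other than Tnf, Lta and Ltb included 7 measured members. Of these 5 were higher (6.65% of all measured genes), 1 lower (7.07% of all) and 1 neither. Their median was 1.53 on the log2 scale. The higher genes were Tnfsf9, which encodes the 4-1BB ligand (17 and 245 reads, 13.3-fold, 8.15 to 23.2), Tnfsf8, the CD30 ligand gene (692 and 4957 reads, 6.62-fold, 6.11 to 7.18), Tnfsf14, the LIGHT gene (102 and 491 reads, 4.45-fold), Tnfsf10, the TRAIL gene (120 and 374 reads, 2.88-fold) and Tnfsf11, the RANKL gene (332 and 837 reads, 2.33-fold). Fasl was lower (253 and 14 reads, 19.5-fold, 11.4 to 36.3). Cd40lg, the main helper signal to B cells, was neither (1236 and 1795 reads).

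Receptors for the 10 cytokines included 10 measured members. None was higher (6.65% of all measured genes), 3 were lower (7.07% of all) and 7 neither. Their median was -0.50 on the log2 scale. Il2ra, the high-affinity IL-2 receptor chain, had 57 and 3 reads (20.6-fold lower, 6.69 to 103). Il4ra had 2395 and 1191 reads (2.18-fold lower, 2.03 to 2.33), opposite to Il4 itself, and Tnfrsf1a had 314 and 164 reads (2.07-fold lower, 1.71 to 2.52). Il21r (4004 and 3162 reads), Ifngr1 (1402 and 1213 reads) and Il2rg, the shared gamma chain (4066 and 3819 reads), were neither. Tnfrsf14 (46 and 99 reads) was just under 2-fold and passes it when the libraries are scaled by DESeq2 size factors or upper quartiles, or when the deeper library is thinned. Csf1r had 18 and 4 reads, so the receptor for CSF-1 was scarcely detected in these cells.

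Transcription factors known to bind cytokine genes were split in direction. Of 45 measured, 12 were higher (6.65% of all measured genes), 7 lower (7.07% of all) and 26 neither. Their median was 0.04 on the log2 scale. Tbx21, which encodes T-bet, the activator of Ifng, had 694 and 45 reads (16.7-fold lower, 12.3 to 23.1), and Eomes, its relative, had 53 and 10 reads (5.73-fold lower, 2.89 to 12.6). Prdm1, which encodes BLIMP-1, a repressor of Il2, had 75 and 4 reads (20.3-fold lower, 7.60 to 76.4). Maf, which encodes an activator of Il4 and Il21, had 169 and 866 reads (4.74-fold higher, 4.01 to 5.62). Nfil3, which encodes a basic leucine zipper factor, had 21 and 366 reads (16.1-fold higher, 10.4 to 26.4). The lists overlap with genes whose values were known when the lists were drawn up, so their counts are not independent evidence.

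**Figure D5:**
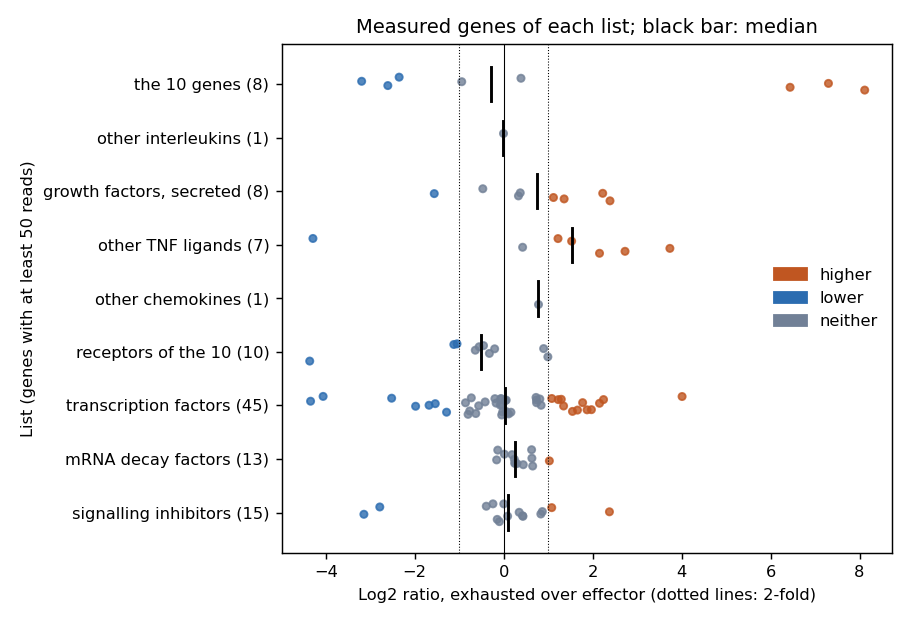
Log2 ratio of exhausted over effector library for each measured gene of the 10 and of 8 related lists, with the median as a black bar and the number of measured genes in brackets. The 8 measured of the 10 genes show a gap between Tnf at 0.39 and Il21 at 6.44, and the receptors have no orange point. Xcl1, at 3.59 but under the read minimum, is not drawn.

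The cell label was checked against markers. All 9 CD4 T cell genes were measured, of which 1 was lower and 8 were neither. Cd4 had 9272 and 15463 reads and Cd3e 7624 and 11432. The receptor constant genes went the other way, with Trac lower (22526 and 11561 reads, 2.11-fold). Trbc1 (5920 and 3976) and Trbc2 (29944 and 27705) were neither. Cd8a and Ms4a1 had 0 reads in both libraries. B cell markers had reads in 5 of 7 genes, 7563 against 3871 in sum (963 and 456 CPM), nearly all in Ighm (7540 and 3851), while Cd79a had 8 and 18 reads and Cd79b had 12 and 2. B cells also express lymphotoxin genes, and the part of these cells in the Lta and Ltb results was not tested. CD8 and gamma delta T cell markers had reads in 4 of 5 genes, 168 against 94 in sum (21.4 and 11.1 CPM), of which Cd8b1 had 164 and 81, and their part in the Ifng and Ccl5 results was not tested. Markers of basophils and mast cells, which can also make IL-4, had reads in 5 of 6 genes but summed to 22 reads in the effector and 9 in the exhausted library (2.80 and 1.06 CPM), with Prss34 at 0. Cpa3 carried most of this sum (18 and 1), while Mcpt8 had 1 and 3 reads and Gata2 1 and 4. Their part in the Il4 result was not tested. NK and innate lymphoid markers had reads in 5 of 7 genes, 46 against 271 in sum (5.86 and 31.9 CPM), led by Klrb1c (36 and 229) and Il1rl1 (5 and 37), with Klre1 and Klra8 at 0 and Ncr1 at 5 and 0. Their part in the Xcl1 and Il4 results was not tested. Monocyte, macrophage and neutrophil markers had reads in 8 of 8 genes, 206 against 251 in sum (26.2 and 29.5 CPM). Itgam (22 and 183) holds most of the exhausted reads of this sum, and Mpo (39 and 49) also had more reads there. The others had more reads in the effector library: Lyz2 (37 and 10), S100a8 (30 and 1), S100a9 (32 and 2), Vcam1 (26 and 2), Csf1r (18 and 4) and Cd14 (2 and 0). The part of these cells in the Tnf, Ccl5 and Csf1 results was not tested. Stromal and endothelial markers had reads in 3 of 7 genes, 2100 against 3207 in sum (267 and 377 CPM). Dendritic cell markers summed to 39 reads in each library (4.96 and 4.59 CPM). Erythroid and platelet markers summed to 124 against 18 reads (15.8 and 2.12 CPM). The part of these last 3 groups of cells in the results, that of Csf1 included, was not tested.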

How the data were processed

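Sorted TEa cells gave RNA for 2 low-input total RNA libraries, per the labels' protocols, and the submitters' processing notes name STAR 2.6 on mm10. How reads were counted, with which strand setting and annotation, is not stated in the sources used here. The authors deposited raw counts of reads as whole numbers, and each gene's length in bases. Here, library sizes were scaled with edgeR 4.0.16 (TMM on genes with at least 50 reads, R 4.3.3), and CPM and RPKM (per kilobase of that length) were computed. A library with 0 reads was set to 3 reads in a ratio. Exact Clopper-Pearson 95% intervals came from scipy 1.17.1. The calling rule was run on simulated counts with counting noise only. These hold no spread between animals and no amplified copies, so the error rate of the rule on real libraries is not known. No count test was run with 1 library per group, since the spread between animals is unknown. Promoter letters came from the RefSeq promoter table, 3′ UTRs and exon overlaps from GENCODE M21. The 10 genes and all lists were chosen with earlier results of these data known. In each list up to 5 called genes with the largest change were named, plus the neighbours of the 10. Other names, the shares within pairs and the ATTTA and nonamer counts were chosen after values were seen. Alternatives changed the scaling (DESeq2 1.42.0 among them), read minimum, gene set, depth, size rule and floor.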

Additional observations from a re-analysis of the deposited data

How the results depend on the processing

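The 3 higher and 3 lower cytokine genes were the count under every scaling tried (DESeq2 size factors, total counts, upper quartiles), on protein-coding genes, after thinning the deeper library, with a prior count of 2, with the interval wholly beyond 2-fold and at 4-fold. With a minimum of 1 read the counts were 4 and 4, since Xcl1 and Ccl5 then enter. With a minimum of 500 reads only Il4, Il21, Csf1 and Ltb remain, the number lower is 0 and the median log2 ratio turns from -0.28 to 6.87. Over all measured genes, 1040 were higher and 1102 lower at 1 read, 244 and 264 at 500 reads, 408 and 453 with the interval wholly beyond 2-fold, and 220 and 238 at 4-fold. Over the related lists, 14 were higher and 7 lower at 500 reads, and 9 and 7 at 4-fold, from 24 and 14. Higher neighbours numbered 2 at 500 reads, with the interval wholly beyond 2-fold and at 4-fold, from 4. Without division by length the shares were 0.443% for Csf1 and 0.338% for Il21 in the effector library. In the exhausted library they were 26.9% for Ltb, 43.4% for Csf1, 7.27% for Il4 and 18.2% for Il21, so Csf1 then leads. No paired analysis was possible because each group has 1 library, and no library could be left out. Depth limits Il4, Xcl1 and Ccl5 most, each with 1 or 2 reads in 1 library.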

Other observations

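Among genes that restrain cytokine signalling, 2 of 15 measured were higher in the exhausted library, 2 were lower and 11 did not pass the 2-fold rule, with a median log2 ratio of 0.09. The rule called 13.7% of all measured genes. Cish and Socs3, which encode inhibitors induced by cytokine receptors, had 98 against 12 reads (8.83-fold lower, 4.84 to 17.7) and 542 against 85 reads (6.90-fold lower, 5.48 to 8.78). The higher genes were Ptpn11, which encodes the phosphatase SHP2 (330 against 1854 reads, 5.19-fold, 4.62 to 5.86), and Socs7 (35 against 80 reads, 2.11-fold, 1.40 to 3.24).

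Of 13 measured genes for factors that control the decay of cytokine mRNA, 12 were neither and 1 was higher. Over all measured genes 6.65% were higher. The median log2 ratio of the 13 was 0.26. The higher gene was Zfp36l1, which encodes a protein that binds AU-rich elements (335 against 738 reads, 2.04-fold, 1.79 to 2.32).

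Fgf2, chosen after its value was seen, has a span in the deposited table that contains Bbs12, the neighbour of Il21, and had 0 against 43 reads, which is under the read minimum.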
